A study of Homo sapiens with 6 samples.

Results

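The probes described here are the 583 bead-array probes annotated to 1 gene symbol that starts with MIR and a digit or with MIRLET, out of 47231 probes in the series. They stand for 578 of 20046 genes. Of these probes, 561 belong to microRNA hairpin genes and 22 to long transcripts that host microRNAs, such as MIR155HG. Of the 583 probes, 65 (56 hairpin and 9 host transcript probes) exceeded a log2 intensity of 6.7 in at least 3 of 6 arrays, where 19894 of all 47231 did. In no array was it exceeded by 374 of the 583 (64.15%, against 36.71% of all). The cells were OCI-LY10, an established human line of activated B cell-like diffuse large B cell lymphoma. They were cultured with pimasertib, which blocks MEK1 and MEK2, the kinases upstream of ERK, or with its solvent DMSO, whose samples one label field calls not treated. Each treatment had 3 Illumina HT-12 arrays, 1 each at 4, 8 and 12 h, so a treatment at a single time has no replicate. The labels give no dose and no word on separate cultures per time. A limma p-value here reflects how much these 6 arrays vary, in the probe itself and over all probes kept, possibly for technical reasons. A single cell line limits what the groups can model. In such bulk RNA, fewer cells that carry a transcript and less of it per cell cannot be told apart.

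MicroRNAs are short RNAs that pair with messenger RNAs through their seed, bases 2 to 8 from the 5′ end, and lower the stability or translation of these targets. They are cut by Drosha and Dicer out of hairpins in long primary transcripts, which are often spliced, polyadenylated and shared by several hairpins. In B cells, miR-155 and the miR-17-92 cluster are known to promote lymphoma, and miR-221 and miR-222 are known for repressing the cell cycle inhibitor p27, which CDKN1B encodes. The kit that made the labelled cRNA primes on poly(A) tails, which mature microRNAs lack. Mature microRNAs were therefore not measured. Probe sequences were not used here, so which part of a primary or host transcript each probe binds is not known, and a level below is that of the probe annotated to the named gene.

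The mature sequences of the microRNAs on which the results turn are shown first, from RefSeq on GRCh38.p14, each 5′ to 3′ with the seed in capitals. The miR-221 and miR-222 arms share a seed and lie in neighbouring genes, miR-155 and miR-146a come from host transcripts with a measured probe, and let-7d, let-7f and miR-98 share a seed among the probes above background.
hsa-miR-221-3p: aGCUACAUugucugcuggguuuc
hsa-miR-222-3p: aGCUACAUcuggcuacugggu
hsa-miR-503-5p: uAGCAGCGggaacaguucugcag
hsa-miR-424-5p: cAGCAGCAauucauguuuugaa
hsa-miR-125b-5p: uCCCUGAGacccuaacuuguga
hsa-miR-146a-5p: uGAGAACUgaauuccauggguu
hsa-miR-155-5p: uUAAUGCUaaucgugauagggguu
hsa-miR-29b-3p: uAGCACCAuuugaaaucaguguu
hsa-miR-29c-3p: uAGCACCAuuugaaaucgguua
hsa-let-7d-5p: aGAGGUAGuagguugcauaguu
hsa-let-7f-5p: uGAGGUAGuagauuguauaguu
hsa-miR-98-5p: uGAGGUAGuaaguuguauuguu
hsa-miR-302c-3p: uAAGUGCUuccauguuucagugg
hsa-miR-373-3p: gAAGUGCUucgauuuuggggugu

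Mature arms were found in that table for 51 of the genes with a probe above background, with 83 arms and 79 different seeds. Only 3 seeds occurred in more than 1 of these genes: GAGGUAG in MIRLET7D, MIRLET7F1 and MIR98, UAUACAA in MIRLET7F1 and MIR98, and AAGUGCU in MIR302C and MIR373.

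The DMSO array of 8 h stood apart from the other arrays, with a mean correlation over the 19894 probes above background of 0.925 against 0.951 to 0.973 for the other 5. Of the B cell markers 4 of the 5 with a probe were above background (CD22, CD79A, CD79B and MS4A1) and PAX5 was not, while IRF4, BATF and FOXP1 of the lymphoma subtype were all above it. Of 5 T cell markers with a probe only CD2 was above background, at 7.33 to 7.70 with pimasertib and 6.83 to 7.98 in DMSO. Of 5 myeloid markers CD14 and FCGR3A were above it, of 5 fibroblast markers DCN, and of 5 epithelial markers EPCAM, KRT19 and KRT8.

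Most microRNA gene probes gave no signal above background, and the arrays differed in how many did. At 4, 8 and 12 h, 65, 61 and 71 of the 583 probes exceeded 6.7 with pimasertib, against 68, 110 and 90 in DMSO. The authors' normalization gives every array the same distribution, so that 42.1% of all probes exceed this level on each array. Of 116 probes above it on a single array, 56 (48.3%) were above it on the DMSO array of 8 h alone, and over all probes that share was 42.1% of 7001. Among them were dim values of known genes: MIRLET7A1 had 6.46, 6.51 and 6.57 with pimasertib at 4, 8 and 12 h, against 6.56, 7.18 and 6.44 in DMSO. Without the DMSO array of 8 h, 59 probes exceeded 6.7 in at least 3 of the other 5 arrays.

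**Figure D1:**
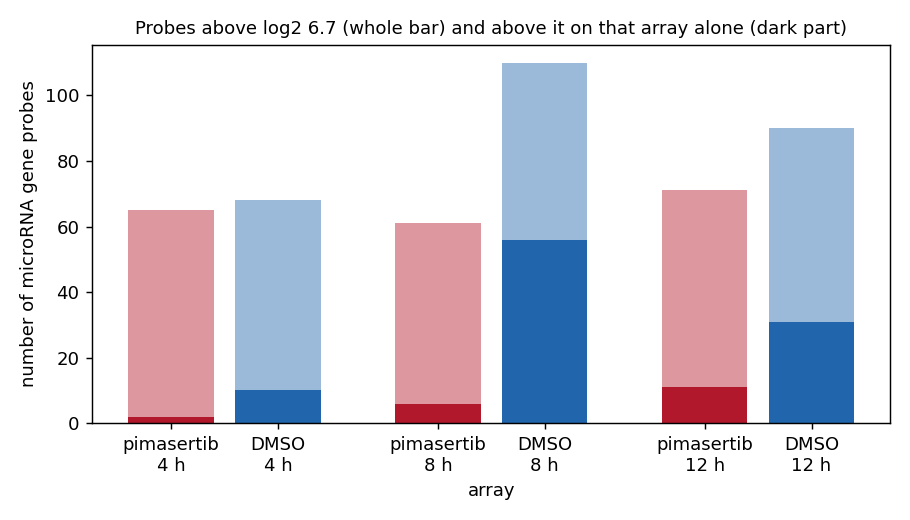
Number of microRNA gene probes (y axis, of 583) above log2 6.7 on each of the 6 arrays (x axis, pimasertib in red and DMSO in blue at each time). The whole bar counts all such probes and its dark part those above 6.7 on that array alone; the DMSO array of 8 h has 110, of which 56 are above it there alone.

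The probes nearest the limit show how thin it is. Ranked by the value that at least 3 arrays reach, MIR507 at 6.7003, MIR203A at 6.7013 and MIR933 at 6.7034 lay just inside, and MIR939 at 6.6954 and MIR1323 and MIR1229, both at 6.699, just outside. Of the 65, 4 (MIR302C, MIR369, MIR450A1 and MIR933) exceeded 6.7 in all pimasertib arrays and no DMSO array, and MIR202 in all DMSO arrays and no pimasertib array. Such probes could pass only by differing, so counts over the 65 do not show a direction for the set. With a limit 6 SDs above the background mode, 6.89, 25 probes passed.

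MIR221 had the largest difference of the 65. Its hairpin lies at chrX:45746157-45746266 on the minus strand (GRCh38.p14), inside the noncoding gene MIR222HG, which has no probe here, and is printed with the mature miR-221-3p arm in capitals to show where the seed above sits.
MIR221 hairpin: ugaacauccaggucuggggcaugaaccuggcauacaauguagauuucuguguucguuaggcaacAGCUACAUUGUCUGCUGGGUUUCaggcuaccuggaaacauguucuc

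MIR221 had log2 intensities of 7.01, 6.76 and 6.87 with pimasertib at 4, 8 and 12 h, against 7.70, 7.42 and 7.81 in DMSO. Every pimasertib array lay below every DMSO array, and all 6 arrays were above background. The differences were -0.68, -0.65 and -0.95 at 4, 8 and 12 h, so they were of like size at each time, including the earliest. The means were 6.88 ± 0.13 with pimasertib and 7.64 ± 0.20 in DMSO (SD, n = 3 each). The difference was -0.76 ± 0.16 (SE), or 1.69-fold lower in intensity. SEs of differences here are those of limma, which draws each probe's variance toward that of all probes kept. The pimasertib mean lies near the background mode of 6.49, so this is a ratio of intensities and not of transcript amounts. In limma over 19894 probes the adjusted p was 0.691 (unadjusted p = 0.0025, rank 19 by p), so the difference did not pass. An exact permutation test of the 3 against 3 arrays gave 0.1, the smallest value it can give. Any probe whose groups do not overlap gets this value, so the test adds nothing to that statement. The difference was -0.81 without the 8 h pair and -0.87 with that single DMSO array left out and no term for time.

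MIR222, whose hairpin starts 858 bases from that of MIR221 on the same strand, did not exceed background on any array. Its probe gave 6.49, 6.49 and 6.50 with pimasertib, against 6.69, 6.39 and 6.69 in DMSO. Its DMSO value of 8 h lay below all pimasertib values, so the groups overlap and this probe gives no check of MIR221. The genes whose probes followed MIR221 most closely over the 6 arrays were ELOF1 (Pearson r = 0.995), TLE5 (0.993), UCKL1 (0.992) and PRR7 (0.985), and 31 probes reached 0.95. These arrays share 1 cell line and 1 normalization, and with 6 points such values are a description. ELOF1 was at -0.42, TLE5 at -0.42, UCKL1 at -0.34 and PRR7 at -0.48, all with an adjusted p of 0.691 in limma. Genes picked for following MIR221 are lower for that reason, so their differences are no check of MIR221.

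**Figure D2:**
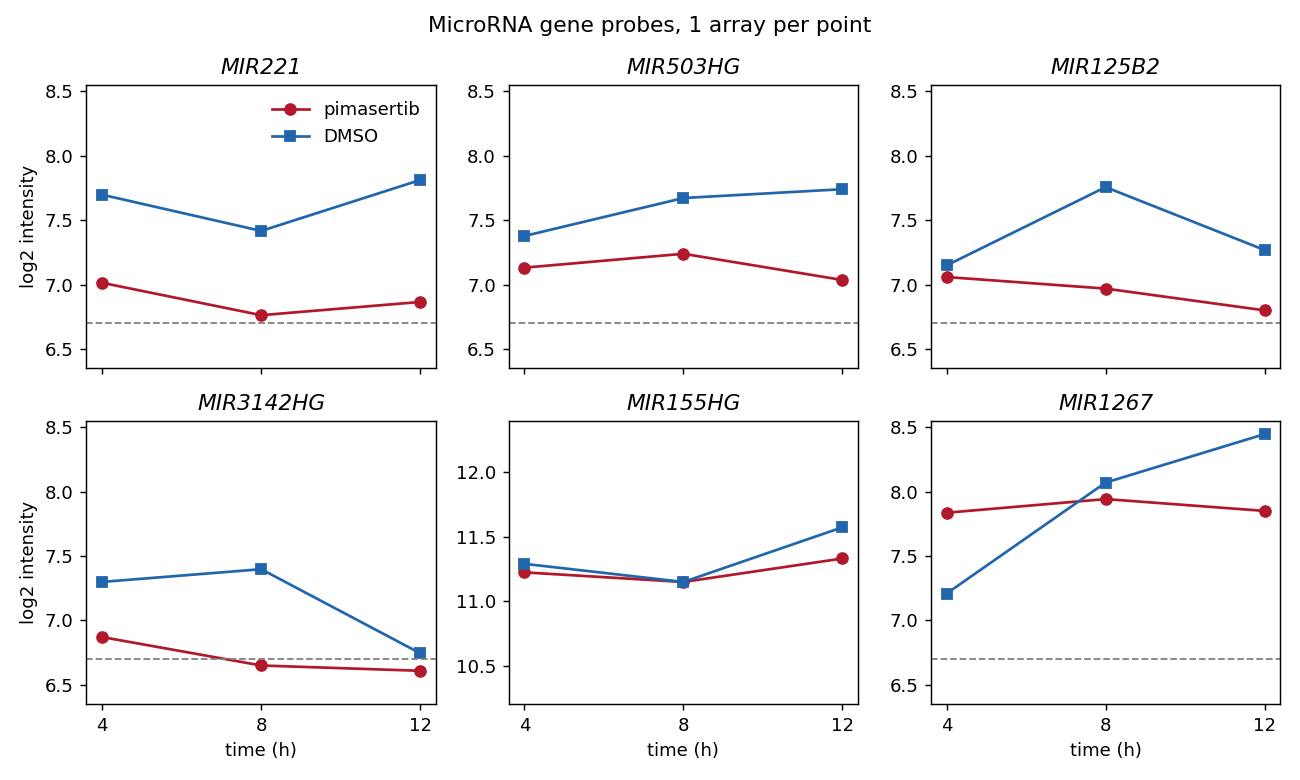
Log2 intensity (y axis) of 6 microRNA gene probes at 4, 8 and 12 h (x axis) with pimasertib (red circles) and in DMSO (blue squares), 1 array per point, with the background limit of 6.7 dashed. MIR221, MIR503HG, MIR125B2 and MIR3142HG lie lower with pimasertib at each time, MIR155HG nearly coincides, and MIR1267 crosses. The difference is small for MIR125B2 at 4 h (-0.09) and MIR3142HG at 12 h (-0.14). The MIR155HG panel has its own range of the same height.

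MIR503HG, the host transcript of miR-503 on the X chromosome (chrX:134543377-134546630, minus strand), was next. It had 7.13, 7.24 and 7.04 with pimasertib, against 7.38, 7.67 and 7.74 in DMSO. The groups did not overlap, and the differences were -0.25, -0.43 and -0.70 at 4, 8 and 12 h. The mean difference was -0.46 ± 0.17 (SE), or 1.38-fold lower in intensity, with an adjusted p of 0.691 in limma (unadjusted p = 0.0307). The change of the difference with time was -0.06 per hour and did not pass either (unadjusted p = 0.272, adjusted p = 1, limma).

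The hairpin probes of the same X chromosome cluster lay at or near background. miR-503 and miR-424 are known to act on cell cycle genes. The MIR503 probe stayed below background on all arrays, at 6.59, 6.67 and 6.59 with pimasertib against 6.60, 6.38 and 6.37 in DMSO. MIR424 exceeded it only on the DMSO array of 8 h, with differences of 0.04, -0.27 and -0.10. MIR450A1, 5987 bases from MIR503, had 6.86, 6.75 and 6.93 with pimasertib against 6.61, 6.63 and 6.62 in DMSO, a difference of 0.23 ± 0.15 (SE) that did not pass (adjusted p = 0.725, limma). Since it exceeded 6.7 through the pimasertib arrays alone, its sign follows from the limit. MIR542, of the same cluster, was above background on 2 arrays, both of pimasertib, with 6.59, 6.81 and 6.89 against 6.49, 6.42 and 6.46 in DMSO.

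The other host transcripts differed little or unevenly. MIR155HG, the precursor of miR-155 (chr21:25562145-25575168, plus strand), had 11.22, 11.15 and 11.33 with pimasertib, against 11.29, 11.15 and 11.57 in DMSO. The groups overlapped, with differences of -0.07, 0.00 and -0.24 at 4, 8 and 12 h. Its mean difference was -0.10 ± 0.15 (SE), with an adjusted p of 0.871 in limma, and it ran from -0.20 to -0.03 over the 13 alternatives. The hairpin gene MIR155 had no probe here. The genes closest to MIR155HG in pattern were FAM210B (r = 0.984), CENPN (0.976), LMLN (0.976) and TNFRSF13B (0.972), of which FAM210B and LMLN lay near background.

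MIR3142HG spans the gene of miR-146a (chr5:160468251-160487426, plus strand), a microRNA known to restrain NF-kB signalling. It had 6.87, 6.65 and 6.61 with pimasertib, against 7.30, 7.40 and 6.75 in DMSO. It was above background in 1 of 3 pimasertib arrays and 3 of 3 DMSO arrays, and the pimasertib value of 4 h lay above the DMSO value of 12 h. The differences were -0.43, -0.75 and -0.14, with a mean of -0.44 ± 0.18 (SE) and an adjusted p of 0.691 in limma (unadjusted p = 0.0479). It was -0.28 without the 8 h pair. The MIR146A probe itself was below background on all 6 arrays.

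MIR29B2CHG, the host of miR-29b-2 and miR-29c (chr1:207801518-207822703, minus strand), had 7.83, 7.87 and 8.03 with pimasertib, against 8.33, 7.73 and 7.97 in DMSO. Only the 4 h pair was apart, at -0.50, and the mean difference was -0.10 ± 0.19 (SE). MIR29B1, from the other miR-29 locus on chromosome 7, was close to background at 6.75, 6.62 and 6.77 against 6.64, 6.38 and 6.86 in DMSO, and its neighbour MIR29A was below it on every array. Mature miR-29b-3p has the same sequence from both loci.

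MIR17HG, the host of the miR-17-92 cluster, exceeded background on only 2 arrays and is not among the 65. It had 6.57, 6.67 and 6.48 with pimasertib, against 6.64, 7.59 and 6.74 in DMSO. Its DMSO value of 8 h stood far above the other 5.

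The remaining host transcripts lay near background. MIR9-1HG was at -0.12, -0.40 and 0.06 at 4, 8 and 12 h, MIR9-2HG at -0.20, 0.22 and -0.14, and MIR181A2HG at -0.04, 0.38 and -0.22. These go both ways within each probe. MIR124-1HG, the host of the neuronal miR-124, had 6.67, 6.72 and 7.60 with pimasertib against 6.71, 6.50 and 6.66 in DMSO, so that its mean of 0.37 ± 0.22 (SE), the highest of the 65, rests on the 12 h pair, and its other probe was above background on 0 arrays. One of 3 MIR99AHG probes passed, at 0.19, -0.74 and 0.25, with a DMSO value of 7.51 at 8 h.

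MIR125B2, whose hairpin lies within MIR99AHG on the plus strand of chromosome 21, was also among the lowest. miR-125b is known for its effects on blood cell development. It had 7.06, 6.97 and 6.80 with pimasertib, against 7.15, 7.76 and 7.27 in DMSO. The groups did not overlap, yet the 4 h values were close, with differences of -0.09, -0.79 and -0.47. The mean was -0.45 ± 0.19 (SE), with an adjusted p of 0.691 in limma (unadjusted p = 0.051), and it was -0.28 without the 8 h pair. The hairpins MIR99A and MIRLET7C in the same host transcript were below background on all arrays.

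The let-7 family is known for repressing RAS genes and HMGA2. MIRLET7D had 7.03, 6.86 and 6.93 with pimasertib, against 7.07, 7.35 and 7.0 in DMSO, or differences of -0.03, -0.49 and -0.07, and its mean was -0.05 without the 8 h pair. MIRLET7F1, 2487 bases away in the same cluster on chromosome 9, was at 0.13, -0.11 and 0.23. MIR98, within HUWE1 on the X chromosome, was at -0.17, -0.34 and 0.55, and its neighbour MIRLET7F2 was above background only on the DMSO array of 8 h. None of the 3 probes that share the let-7 seed had non-overlapping groups, and their mean differences were -0.20, 0.08 and 0.02 with an adjusted p of 0.764 to 0.988 in limma.

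The AAGUGCU seed, typical of embryonic stem cell microRNAs, is shared by MIR302C and MIR373. MIR302C had 6.83, 6.87 and 6.98 with pimasertib, against 6.61, 6.65 and 6.42 in DMSO, with no overlap, a direction that its passing the limit in pimasertib arrays alone had set. Its mean difference was 0.33 ± 0.16 (SE) with an adjusted p of 0.691 in limma, and its 4 cluster neighbours MIR302A, MIR302B, MIR302D and MIR367 were below background on every array. MIR373 had 6.88, 6.84 and 6.85 with pimasertib, against 6.83, 7.16 and 7.12 in DMSO, at -0.18 ± 0.16 (SE).

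Further hairpins, several of them known from blood cells, are given next, a grouping made after their values were seen. MIR142, a blood cell microRNA gene, had 6.78, 6.81 and 6.67 with pimasertib against 7.16, 6.4 and 7.04 in DMSO, and the sign of its difference at 8 h was opposite to that at 4 and 12 h. MIR21, which is known to repress the tumour suppressor PDCD4, was at -0.14, 0.27 and 0.10. MIR34A, a p53 target, was at -0.01, -0.10 and 0.32. MIR130A, with 7.73, 7.79 and 7.94 against 8.22, 7.82 and 8.05 in DMSO, was lower at all 3 times, and most so at 4 h, at -0.49. MIR342 had 6.73, 6.61 and 6.66 against 6.75, 7.07 and 7.01 in DMSO, with no overlap, although the 4 h difference was -0.03. MIR25 lay at -0.05, 0.09 and -0.12.

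Among hairpins above background on all 6 arrays, 3 combined DMSO values that were higher at each later time with pimasertib values of narrower range. They were grouped with their values seen, and this pattern by itself makes the change of the difference with time negative. MIR1267 had 7.84, 7.94 and 7.85 with pimasertib, against 7.21, 8.07 and 8.45 in DMSO. MIR1228, within the LRP1 gene, had 7.86, 7.62 and 7.86 against 7.04, 7.54 and 8.06 in DMSO. Their differences ran from 0.63 and 0.81 at 4 h to -0.60 and -0.19 at 12 h. MIR586, within SUPT3H, had 7.66, 7.72 and 7.83 against 7.20, 7.66 and 7.94 in DMSO. The slope of the difference was -0.15 ± 0.05 per hour for MIR1267 (SE, unadjusted p = 0.0266, limma), -0.13 for MIR1228 (unadjusted p = 0.0475, limma) and -0.07 for MIR586 (unadjusted p = 0.16, limma). Each had an adjusted p of 1. An unadjusted p under 0.05 for a negative slope was met by 2 of the 65, or 3.08%, where the share over all probes above background was 0.734%. For a positive slope it was met by 0, where that share was 1.14%.

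The rest of the probes above background on all arrays were MIR488, MIR599, MIR2116, MIR300, MIR877, MIR1185-1, MIR1204 and MIR129-2. MIR488 had 7.45, 7.32 and 7.04 with pimasertib against 7.35, 7.94 and 7.75 in DMSO, higher at 4 h and lower at 8 and 12 h. MIR2116 had 6.82, 6.85 and 6.71 against 7.12, 6.99 and 6.96 in DMSO, with no overlap, at -0.23 ± 0.15 (SE). MIR129-2 had 7.01, 7.08 and 7.29 against 6.90, 6.95 and 6.88 in DMSO, also with no overlap, at 0.22 ± 0.16 (SE). MIR599 was at -0.22, 0.07 and -0.44. MIR300 and MIR1185-1, 1614 bases apart in the cluster on chromosome 14, had mean differences of 0.01 and 0.09, while the cluster's other probed hairpins within 10000 bases exceeded background on at most 1 array. MIR877 lay at 0.13, -0.03 and -0.02, and MIR1204 at 0.14, -0.16 and 0.30.

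The dimmer probes, above background on 3 to 5 arrays, can be given by their differences at 4, 8 and 12 h. On the lower side MIR1976 was at -0.09, -0.41 and -0.52, MIR1471 at -0.24, -0.93 and 0.25, MIR761 at -0.11, -0.68 and -0.10, MIR199B at 0.04, -0.77 and 0.12, and MIR202 at -0.19, -0.23 and -0.07. MIR1471, MIR761 and MIR199B each had their highest value on the DMSO array of 8 h, at 7.64, 7.39 and 7.42. On the higher side MIR561 was at 0.08, 0.41 and 0.59, MIR933 at 0.17, 0.13 and 0.37, MIR577 at 0.01, 0.55 and 0.06, MIR330 at -0.13, 0.46 and 0.25, and MIR30B at 0.01, 0.03 and 0.42. Of these only MIR561 and MIR933 had pimasertib values all above the DMSO values.

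Smaller mean differences remained. MIR708 was at 0.06, 0.19 and 0.17, MIR369 at 0.15, 0.18 and 0.07, MIR611 at 0.10, 0.23 and 0.05, MIR361 at 0.14, 0.13 and 0.01, and MIR345 at 0.05, 0.11 and 0.07, all higher at each time by under 0.25. Mixed in sign were MIR1909 at 0.11, 0.39 and -0.15, MIR1253 at 0.12, -0.08 and 0.29, MIR507 at -0.11, 0.34 and 0.03, MIR1281 at 0.30, 0.09 and -0.14, MIR448 at -0.04, -0.10 and 0.29, MIR564 at 0.40, 0.03 and -0.32, MIR574 at 0.08, 0.02 and -0.03, and MIR1234 at 0.17, -0.19 and 0.04. Also mixed were MIR203A at 0.02, -0.08 and 0.04, MIR571 at -0.05, 0.18 and -0.18, MIR498 at 0.24, -0.53 and 0.19, MIR335 at 0.10, -0.09 and -0.11, MIR1224 at 0.09, -0.12 and -0.16, MIR607 at -0.10, 0.49 and -0.59, and MIR365A at -0.24, 0.03 and -0.03. Mean levels of these 20 probes lay within 1 log2 unit of the background mode.

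**Figure D3:**
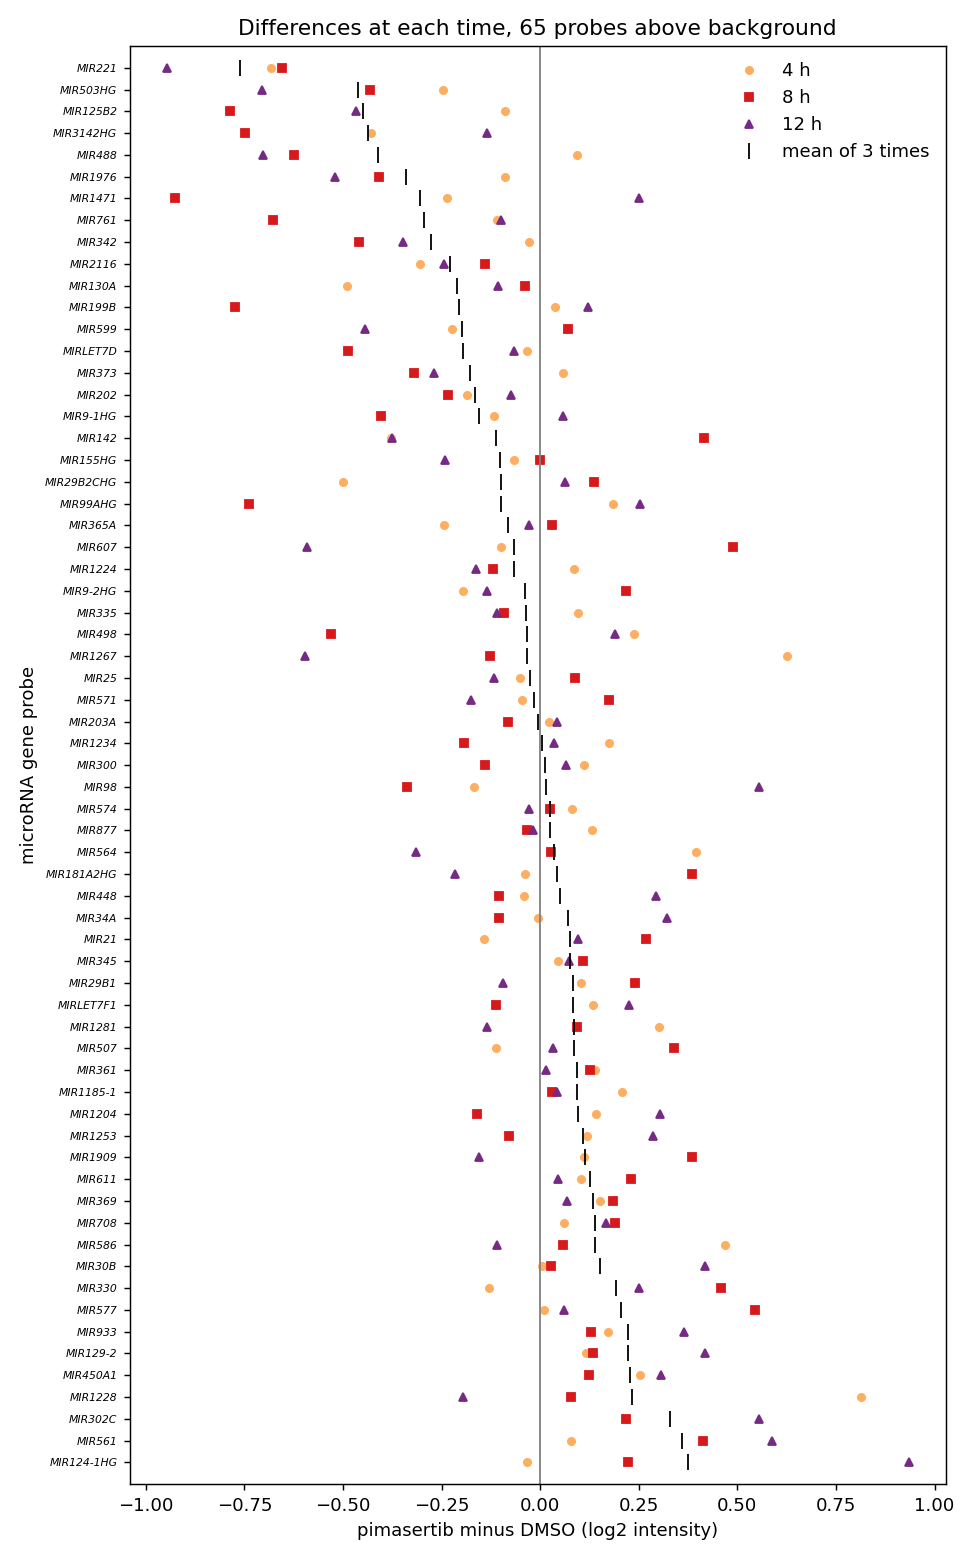
Pimasertib minus DMSO (x axis, log2 intensity) for each of the 65 probes above background (rows), at 4 h (circles), 8 h (squares) and 12 h (triangles), with the mean of the 3 times as a bar. MIR221 stands at the lower end with all 3 times between -0.95 and -0.65, whereas in many rows the 3 times fall on both sides of 0.

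At an adjusted p under 0.05 in limma 0 of the 65 probes were called, as were 0% of all 19894, for the mean difference and for its slope with time. Unadjusted p under 0.05 was met by 0 higher probes, where 3.42% of all were called, and by 3 lower probes (MIR221, MIR503HG and MIR3142HG), or 4.62% against 3.44% of all. The groups did not overlap in 8 higher probes (12.3%, against 8.11% of all) and 6 lower ones (9.23%, against 7.5%). Over all 583 probes, with no filter, these counts were 31 higher (5.32%, against 7.03% of 47231) and 44 lower (7.55%, against 7.5%). Higher at all 3 times were 13 of the 65 (20%, against 17.4% of all) and lower at all 3 times 11 (16.9%, against 14.7%), and with no filter 66 (11.3%, against 14.6%) and 115 (19.7%, against 16%). Without the DMSO array of 8 h, 9 of the 65 were higher and 11 lower without overlap, where 13.9% and 14.1% of all were. The median difference of the 65 was 0.01, against 0.02 over all probes above background.

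Differences of at least 1.5-fold at single times, where there is no test, are given beside the share of all probes above background. At 4 h MIR1228 and MIR1267 were that much higher (3.08% of the 65, against 0.945% of all) and MIR221 alone that much lower (1.54%, against 0.92%). At 8 h 0 were higher, where 13.6% of all were, and 8 were lower (12.3%, against 9.84%). The DMSO array of 8 h stood apart, and the 65 are dimmer than all probes above background (median level 6.81, against 7.5). These shares therefore compare probes of unlike level, and a direction of the set was not tested. At 12 h MIR124-1HG and MIR561 were higher (3.08%, against 8.36%) and MIR221, MIR503HG, MIR488, MIR607 and MIR1267 lower (7.69%, against 7.76%). MIR221 was the single probe of the 65 that much lower at all 3 times (1.54%, against 0.0804% of all, or 16 probes), and 0 were that much higher at all 3, where 0.0251% of all were. MIR221 was singled out with its values known, so its place here is a description.

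**Figure D4:**
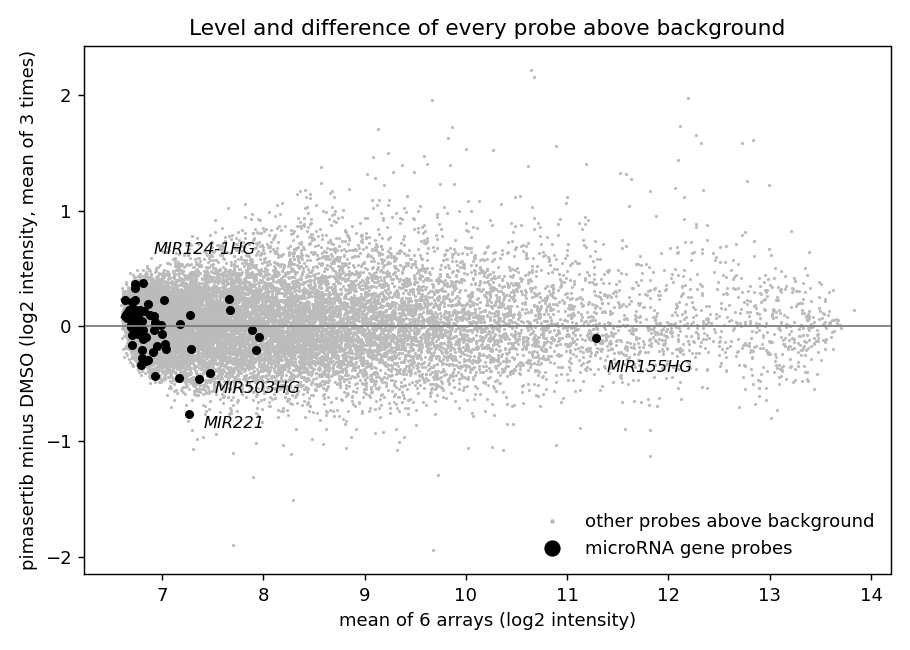
Mean log2 intensity over 6 arrays (x axis) and pimasertib minus DMSO averaged over 3 times (y axis) for the 65 microRNA gene probes (black) and the other probes above background (grey). The microRNA gene probes have a median level of 6.81, against 7.5 over all probes above background, MIR155HG is the brightest of them, and MIR221 is the lowest at -0.76.

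Many hairpins lie inside other genes, whose own probes can be set beside them. Of 52 hairpin genes with a locus and strand, 36 lay within another gene on the same strand, and 16 of these genes had a probe above background. The hairpin and that gene had the same sign in 8 of 16, with Pearson r = 0.38 and Spearman rho = 0.36 across these pairs, which share the arrays and so are not independent. MIR1976 and RPS6KA1, an ERK-activated kinase, were at -0.34 and -0.51. RPS6KA1 was at -0.01, -1.03 and -0.5 at 4, 8 and 12 h, and MIR1976 was above background on only 3 arrays. MIR342 and EVL were at -0.28 and 0.16, MIR25 and MCM7 at -0.03 and 0.19, and MIR21 and VMP1 at 0.07 and 0.18. The adjusted p in limma was 0.691 to 0.874 for RPS6KA1, EVL, MCM7 and VMP1. MCM7 had other probes at 0.82 and 0.13.

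Genes that process or carry microRNAs were measured alongside. Of 25 processing and effector genes 21 were above background, 0 passed in either direction in limma (0 also at an unadjusted p under 0.05), and 2 were lower without overlap, DGCR8, the partner of Drosha, and the helicase MOV10, at -0.28 and -0.26, where 8.22% of 11100 genes were lower without overlap. The list's median was -0.06, against 0.02 over all genes. Of 31 host genes of intronic microRNAs 24 were above background and 0 passed in limma, with 3 higher and 1 lower at an unadjusted p under 0.05, where 4.02% and 3.89% of all genes were. Of these 24, 4 were higher and 2 lower without overlap, where 8.4% and 8.22% of all genes were, and their median was 0.17. SKA2, which hosts miR-301a, had 8.74, 8.78 and 9.10 with pimasertib against 8.43, 7.82 and 7.79 in DMSO, but its other probes were at -0.63 and 0.05. LPP, at 0.59, had another probe at 0.15, and SMC4, at 1.09, had others at -0.03 and -0.51. LPP and SMC4 had their lowest values on the DMSO array of 8 h, at 9.25 and 7.94. The lower gene, DNM2, was at -0.45, with another probe at -0.52. Of 27 known targets of miR-221, miR-155, miR-17-92, miR-21 and let-7, 15 were above background, 0 passed in limma (1 lower at an unadjusted p under 0.05, SPI1 at -0.37, whose other probe was at 0.37), and the median was -0.02. CDKN1B, the known miR-221 target, had 8.87, 9.03 and 9.64 with pimasertib against 9.04, 8.41 and 8.75 in DMSO (0.45 ± 0.23, SE, adjusted p = 0.698, limma), and its other probe was at -0.03.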

How the data were processed

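The deposited table holds the authors' log2 intensities of 6 arrays, from 6.20 to 13.91. Sorted, the 6 columns agree to within 9e-04, as quantile normalization by the authors would leave them. The base was inferred from the range, and the sources used here name no software or background correction. The other deposited table, of intensities not yet normalized, was left out because its 6 value columns match no label. Per the labels' protocols, column-purified RNA was amplified to biotinylated cRNA. The background limit of 6.70 lies about 3 SDs (0.0679) above the mode of all values, 6.49. It left 19894 probes, each kept as its own value. Gene names come from the platform annotation, matched by gene ID to RefSeq on GRCh38.p14 (583 of 583 probes, 0 symbols changed). Pimasertib minus DMSO was fitted in limma 3.58.1 (R 4.3.3) with time as a factor, leaving 2 residual degrees of freedom, so that a true change of the effect with time counts as error. A second fit had treatment, hour and their product. Tests were two-sided, and Benjamini-Hochberg adjustment ran over all probes kept. The SEs of differences and slopes and the limma p-values use a variance drawn toward that of all these probes. They therefore do not give a probe's own spread alone, unlike the SDs of the groups. For the gene lists, the probe of highest mean stood for a gene. In 1 set of data simulated for 19894 probes, 100 were changed by 1 log2 unit and another 100 by 2. The fit found 92 of the former and 100 of the latter, with 12 false calls in the whole set. The simulated noise was independent between arrays, with no effect of time and no array that stood apart. The counts therefore do not give the share of such changes that the fit would find in these data. The members and lists were chosen with earlier results of these data known. All probes above the limit are named, with other genes that a fixed rule takes (MIR222 and MIR17HG, the limit's neighbours, the closest patterns and some of the list members of smallest p). Hosts, cluster neighbours, which of those list members to name, SKA2's and other second probes were chosen after their values were seen. For arrays, their number limits the precision.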

Additional observations from a re-analysis of the deposited data

How the results depend on the processing

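No microRNA gene probe passed an adjusted p of 0.05 in limma in any of the 13 alternatives for the treatment effect or the 5 tested for the slope. Over all probes, 0 passed in the fit reported. A robust prior with a variance trend gave 2, and the count ranged from 0 to 10 when a time pair was left out, with 10 without the 12 h pair. Without the replicate block, that is without the time point, 0 passed, and 1307 against 1365 had an unadjusted p under 0.05. The slope gave 0 throughout, with 372 at an unadjusted p under 0.05. Without a time pair it has no residual degrees of freedom and was not tested. The number of microRNA gene probes above background was 209 for at least 1 of 6 arrays, 20 for all 6, and 25 with the limit 6 SDs above the mode, against 65. With the DMSO array of 8 h left out (chosen after seeing the data), 9 of the 65 were higher and 11 lower without overlap, against 8 and 6 with it. Over all probes these shares were 13.9% and 14.1%, against 8.11% and 7.5%. Of 800 differences of single probes over all alternatives, 739 kept their sign and 61 changed it without passing in either fit. MIR221 stayed lower in all 13, from -0.94 to -0.67, with an adjusted p of 0.365 to 0.806. MIR503HG ran from -0.57 to -0.34 and MIR125B2 from -0.63 to -0.22. MIR1267 changed sign in 5 of 13. Cyclic loess and normexp with an offset of 50 changed the sign of 5 and 0 of the 65.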
